A study of Homo sapiens with 1 sample.

Results

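The genes described here are 8 genes of lissencephaly and of the dynein regulators, PAFAH1B1, YWHAE, NDE1, NDEL1, DYNC1H1, TUBA1A, TUBB2B and DCX. They were taken by symbol from the 33538 genes listed for 1 single-cell RNA sequencing (scRNA-seq) library, and all 8 were found. The rule is a list of names and sets no threshold on a measured value. H9, the human embryonic stem cell (hESC) line behind this library, had the genotype labelled WT and so carried the human form of HAR123 (hHAR123), an enhancer within the gene SMG6. Towards neural progenitor cells (NPCs), the cultures spent 2 days in N2 medium with Dorsomorphin at 1 μM, SB431542 at 10 μM and Rock inhibitor at 5 μM. Dorsomorphin and SB431542 were kept for 5 days of rotation as embryoid bodies, which were then replated on Matrigel for 7 days without them. Clones were pooled before capture and rosettes had not yet been picked, per the methods. A single library gives no replicates, so nothing was tested, and each interval below is an exact 95% interval that covers counting error only.

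Lissencephaly is a smooth cerebral cortex, left when newborn neurons fail to migrate outward. Cytoplasmic dynein 1 is the motor that walks towards the minus ends of microtubules. It positions the spindle and moves the nucleus of a dividing progenitor, and in a migrating neuron it pulls the nucleus behind the leading process. DYNC1H1 encodes its heavy chain, which holds the motor domain. PAFAH1B1 encodes LIS1, which binds the motor, and NDE1 and NDEL1 encode paired scaffolds that bring LIS1 to dynein. YWHAE encodes 14-3-3 epsilon, which binds phosphorylated NDEL1. The track itself is built from alpha tubulin (TUBA1A) and beta tubulin (TUBB2B), and DCX encodes doublecortin, which binds and stabilizes microtubules in young neurons.

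Of 14726 barcodes, 13925 passed the study's limits of 2000 to 10000 genes and a mitochondrial share below 0.1, with 3167 to 118188 unique molecular identifiers (UMIs, 1 per captured molecule) each. Newborn neuron-like cells were the 121 cells (0.869%) with a UMI of at least 3 of STMN2, ELAVL3, ELAVL4, INSM1, NHLH1 and NEUROD1. Contractile cells were the 1582 cells (11.4%) with at least 5 UMIs of ANXA1, TFPI2 and CTGF together per 10000. The 2 cells that met both rules were left out, and the remaining 12220 cells (87.8%) are called other cells. These were divided by a cell cycle score into 2949 in G1, 5533 in S and 3738 in G2/M. None of the 8 genes is in the lists that set the groups or the score. The groups differed in depth, with a median of 14100 UMIs in newborn neuron-like, 47149.5 in contractile and 16944 in other cells. Levels are therefore given as CPM, the UMIs of a gene per 1000000 UMIs of the group.

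Markers outside the rules were checked against the group names. In newborn neuron-like cells, all 4 tested neuron markers (GAP43, MAP2, SYT1 and STMN1) were at least 1.5-fold higher than in other cells, and 5 of 6 progenitor markers were at least 1.5-fold lower, SOX2 at 142 against 414 CPM. GAP43 does not set these cells apart from contractile cells, with 129.8 CPM here and 145 there, and in contractile against other cells the same 4 markers had 1 past 1.5-fold upward, GAP43, and 2 downward. TUBB3, a standard neuronal tubulin, was 29.9 CPM against 4.28 in other and 4.32 in contractile cells, below the level limit. EOMES and NEUROG1, markers of neurogenic intermediate progenitors, stood at 146 and 118 CPM in this group and at 0.0636 and 0.199 in other cells, so the rule took cells with these markers as well. In contractile cells all 5 tested smooth muscle-type markers were higher, TAGLN at 4596 against 446 CPM, and all 4 forebrain markers were lower. MYH11, the smooth muscle myosin and the 1 marker of that list below the level limit, was 0.927 against 2.03 CPM. Of the 6 progenitor markers, VIM at 4.73 and NES at 2.78 times their level in other cells were past 1.5-fold upward there, and SOX2 (0.282), PAX6 (0.374) and SOX9 (0.383) downward. Crest and mesenchyme markers (SOX10, FOXD3, TWIST1, COL1A2, DCN and LUM) summed to 77.8 CPM there, of which COL1A2 passed the level limit, against 10.3 in other cells, with 2 of the 6 at 0. Pluripotency markers (POU5F1 and NANOG) summed to under 1 CPM in each group.

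The promoters of the 4 genes whose levels varied most between groups are shown first, since the results below turn on them. RefSeq (GRCh38.p14) holds a start site for all 8 genes, 11 in all, and the 250 bases before each were searched on both strands for 6 motifs. These were CCAAT, found in 32.0% of all 35116 such windows, TTTGAA (the cell cycle homology region, 13%), TTTGGCG (part of the E2F site, 1.59%), the E-boxes CAGCTG (14%) and CAGATG (12.2%), and TATAAA (10.7%). Capitals mark the matches, none of which overlap, and each sequence runs 5′ to 3′ along its gene and ends just before the start site.
DCX, chrX:111412193-111412442, minus strand: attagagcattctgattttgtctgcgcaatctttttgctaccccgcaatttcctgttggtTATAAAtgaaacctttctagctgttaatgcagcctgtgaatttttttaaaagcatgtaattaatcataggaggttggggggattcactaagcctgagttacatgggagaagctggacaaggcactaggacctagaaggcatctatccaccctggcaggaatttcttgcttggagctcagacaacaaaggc
TUBA1A, chr12:49189081-49189330, minus strand: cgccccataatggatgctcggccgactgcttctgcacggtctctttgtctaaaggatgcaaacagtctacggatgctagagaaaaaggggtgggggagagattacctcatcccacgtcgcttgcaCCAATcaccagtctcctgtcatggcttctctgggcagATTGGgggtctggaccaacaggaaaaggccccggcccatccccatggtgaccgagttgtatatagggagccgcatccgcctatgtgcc
TUBB2B, chr6:3227654-3227903, minus strand: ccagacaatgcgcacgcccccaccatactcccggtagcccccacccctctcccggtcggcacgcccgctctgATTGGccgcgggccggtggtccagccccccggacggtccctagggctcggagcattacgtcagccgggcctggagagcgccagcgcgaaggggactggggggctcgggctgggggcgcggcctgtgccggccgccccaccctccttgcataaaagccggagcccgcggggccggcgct
NDE1 upstream start, chr16:15643132-15643381, plus strand: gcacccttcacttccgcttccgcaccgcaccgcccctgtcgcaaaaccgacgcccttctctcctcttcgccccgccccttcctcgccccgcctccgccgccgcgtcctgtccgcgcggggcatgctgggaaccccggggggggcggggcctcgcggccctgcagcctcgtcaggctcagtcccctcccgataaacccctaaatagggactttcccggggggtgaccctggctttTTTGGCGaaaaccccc
NDE1 downstream start, chr16:15649995-15650244, plus strand: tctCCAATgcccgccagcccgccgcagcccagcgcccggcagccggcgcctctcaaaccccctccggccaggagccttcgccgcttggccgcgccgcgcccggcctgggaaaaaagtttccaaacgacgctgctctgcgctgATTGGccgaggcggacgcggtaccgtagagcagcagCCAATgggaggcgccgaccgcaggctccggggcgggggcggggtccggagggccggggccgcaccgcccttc

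DCX has 3 start sites, of which the first is shown, and their windows hold 42% to 44% G and C, whereas the TUBB2B and both NDE1 windows hold 70.4% to 75.2%, and the median of all windows was 58%. TUBA1A has 2 matches to CCAAT, TUBB2B has 1, and the second DCX window, not shown, has 1 at 87 to 83 bases before its start. NDE1 has 3 at its downstream start and the single TTTGGCG of the 11 windows at its upstream start, 16 to 10 bases before it. Neither E-box nor TTTGAA was found in any of the 11 windows, which says only that these letters are not there. The windows of PAFAH1B1, YWHAE, NDEL1 and DYNC1H1 held none of the 6 motifs.

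Over all kept cells the 8 genes covered a wide range of UMIs. TUBA1A (1139 CPM) and YWHAE (619 CPM) gave the most. TUBB2B (373 CPM), DYNC1H1 (200.5 CPM), PAFAH1B1 (183 CPM) and DCX (62.3 CPM) followed, and NDEL1 (19.3 CPM) and NDE1 (17.4 CPM) gave the fewest. These levels are counts of UMIs and are not divided by gene length, and the part of gene length in them was not tested. All 8 passed the limit of 10 CPM over all kept cells, as did 10000 genes in all. A gene of this set is counted as past the fold where its CPM differed by 1.5-fold or more between 2 groups.

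**Figure D1:**
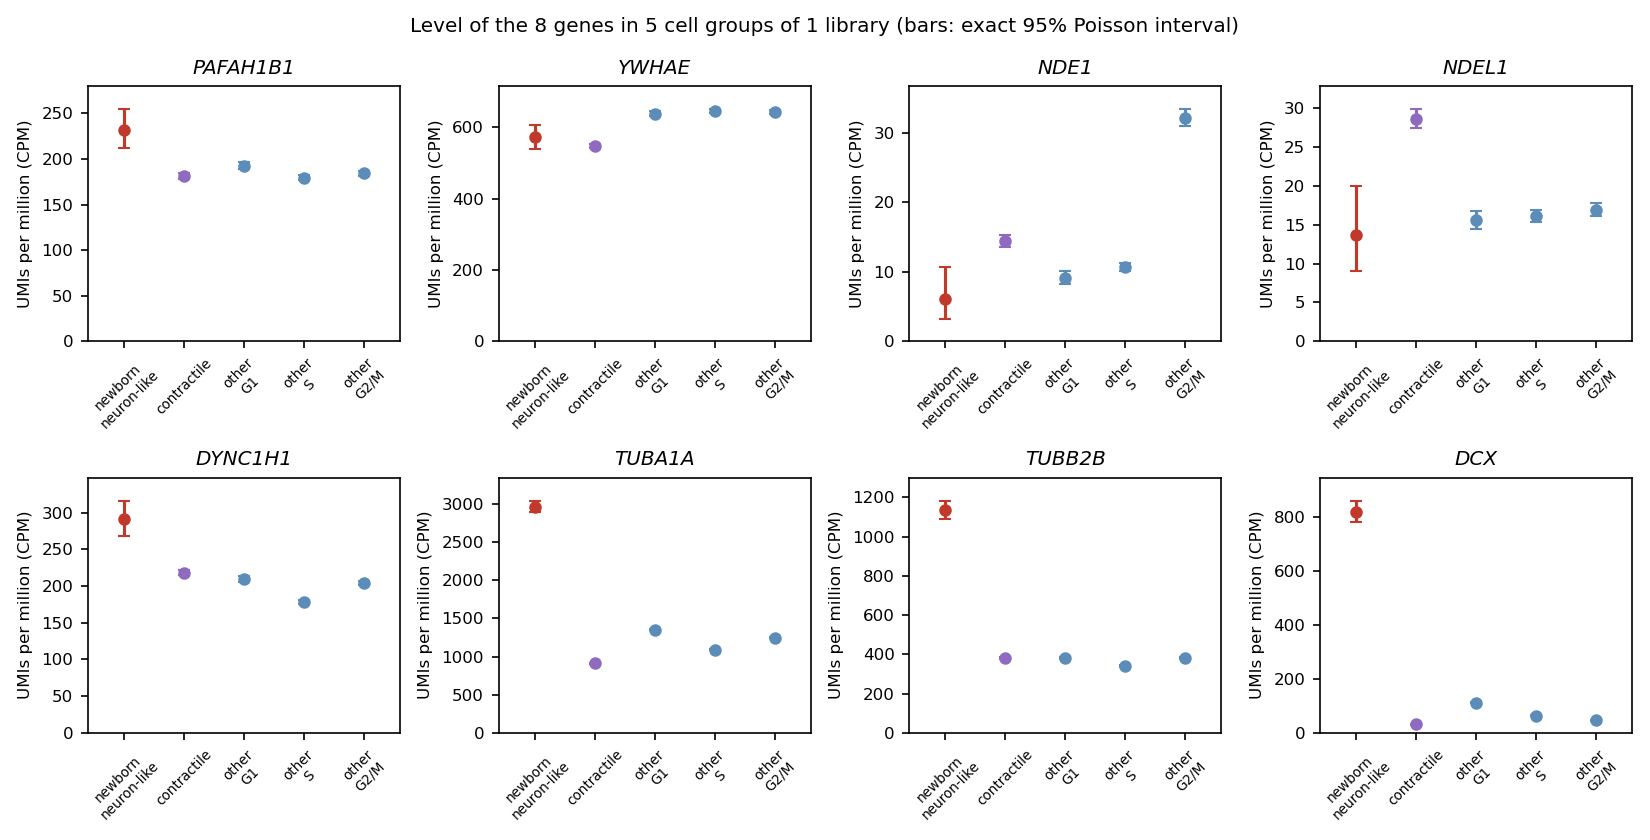
Level of each gene (vertical axis, UMIs per 1000000 UMIs, from 0) in newborn neuron-like cells, contractile cells and other cells in G1, S and G2/M (points), with exact 95% Poisson intervals as bars. DCX, TUBA1A and TUBB2B stand highest in newborn neuron-like cells, NDE1 in other cells in G2/M (32.2 CPM) and NDEL1 in contractile cells (28.6 CPM).

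Newborn neuron-like cells were set against other cells to ask which of these genes are more abundant in young neurons than in progenitors. DCX differed most. It stood at 821 CPM (782 to 862) in newborn neuron-like cells, and at 112 CPM in G1, 64.1 in S and 46.3 in G2/M among other cells. No 2 of these intervals overlapped, and the ratio of newborn neuron-like to all other cells was 12.4 (11.8 to 13.1), higher than that of 99.8% of tested genes. With both groups limited to their cells in G1, the ratio was 8.69 (8.18 to 9.23). EOMES, which is not in the rule, went from 146 to 0.0636 CPM between the same groups, and DCX stood at 66.2 CPM in other cells.

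Both tubulins of the set were higher in newborn neuron-like cells as well. TUBB2B was 1135 CPM (1089 to 1184) there, against 381 CPM in G1, 341 in S and 382 in G2/M, a ratio of 3.12 (2.99 to 3.26) to all other cells. TUBA1A was 2967 CPM (2891 to 3044), against 1354, 1091 and 1244 CPM, a ratio of 2.48 (2.42 to 2.54). Neither interval came near those of the other groups. DYNC1H1 just reached the fold, at 292 CPM (268 to 316) against 194 CPM, a ratio of 1.5 (1.38 to 1.63), and fell short of it as UMIs per cell (1.27), with all barcodes (1.49), without the highest 8% of doublet scores (1.47), in G1 alone (1.47) and with at least 2 neuron markers (1.11). It passed the fold as the mean of per-cell CPM (1.59), in thinned cells (1.62) and with at least 4 markers (1.6). PAFAH1B1 stood at 232 CPM (211 to 255), its highest group, with a ratio of 1.26 (1.15 to 1.39) that stayed short of the fold.

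The remaining regulators were not higher. YWHAE stood at 572 CPM (539 to 606), below the 643 CPM of other cells by a ratio of 0.889 (0.837 to 0.942). NDEL1 gave 27 UMIs in the 121 cells, 13.7 CPM (9.02 to 19.9), and the interval of its ratio, 0.839 (0.552 to 1.22), included 1. NDE1 was lower by more than the fold, at 6.09 CPM (3.14 to 10.6) against 18.5 CPM in other cells of all cycle states. The ratio was 0.329 (0.170 to 0.575). It rested on 12 UMIs, of which 6 came from the 8 newborn neuron-like cells scored as G2/M and 4 from 1 cell. As the mean of per-cell CPM the ratio was 0.247, and without the highest 8% of doublet scores (Scrublet) it was 0.210. In cells thinned to 5000 UMIs each the ratio was 0.776 (0.334 to 1.53) on 8 UMIs, so a lower level of NDE1 was not detectable at that depth. Other cells in G1 alone had NDE1 at 9.14 CPM (8.26 to 10.1), which overlaps the interval of newborn neuron-like cells. Between the G1 cells of both groups the ratio was 0.379 (0.123 to 0.893) on 5 UMIs, and 0.770 (0.207 to 2.01) after thinning. Of the 16 newborn neuron-like cells scored as S or G2/M, 10 were among the 8% of barcodes with the highest doublet scores, against 3 of the 105 in G1. Among other cells, too, such scores were more frequent in S (9.51%) and G2/M (9.34%) than in G1 (2.44%). Scrublet itself called only 1 barcode, so these scores do not tell which cells are doublets.

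In this comparison 4 of the 8 genes were past the fold upward, DYNC1H1 barely, beside 10.6% of the 10000 tested genes, and 1 downward, beside 22.3%. The median ratio was 1.38 over the 8 genes and 0.915 over all tested genes. Relative to the latter, which is -0.13 on the log2 scale, the ratios were 13.6 for DCX, 3.41 for TUBB2B, 2.71 for TUBA1A, 1.64 for DYNC1H1, 1.38 for PAFAH1B1, 0.971 for YWHAE, 0.918 for NDEL1 and 0.360 for NDE1.

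The rule sets a limit of 3 markers, so levels were also followed along the number of markers detected, with contractile cells left out. The 5 steps held 9712, 2301, 207, 22 and 99 cells. DCX stood at 63.7, 73.9 and 86.7 CPM with 0, 1 and 2 markers, and at 679.6 and 853 CPM with 3 and with 4 or more. TUBA1A took the same step, from 1334 CPM at 2 markers to 3371 at 3, and TUBB2B went from 391 to 1541 CPM. With 4 or more markers both tubulins were lower than at 3, TUBA1A at 2876 CPM. DYNC1H1 and PAFAH1B1 did not step up at 3 markers, where they stood at 206 CPM (162 to 259) and 179 CPM (138 to 228), and were highest at 4 or more, with 311 and 244 CPM. NDE1 was 17.8, 20.8 and 23.8 CPM up to 2 markers, with 1 UMI in the 22 cells at 3. The step was more graded where markers were counted after thinning, which leaves fewer detected. DCX was then 64.8, 81.9, 331 and 941 CPM with 0, 1, 2 and 3 or more markers (11236, 925, 56 and 99 cells). In the same steps TUBA1A went from 1358 CPM at 1 marker to 1739 at 2, and TUBB2B from 382 to 605.

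**Figure D2:**
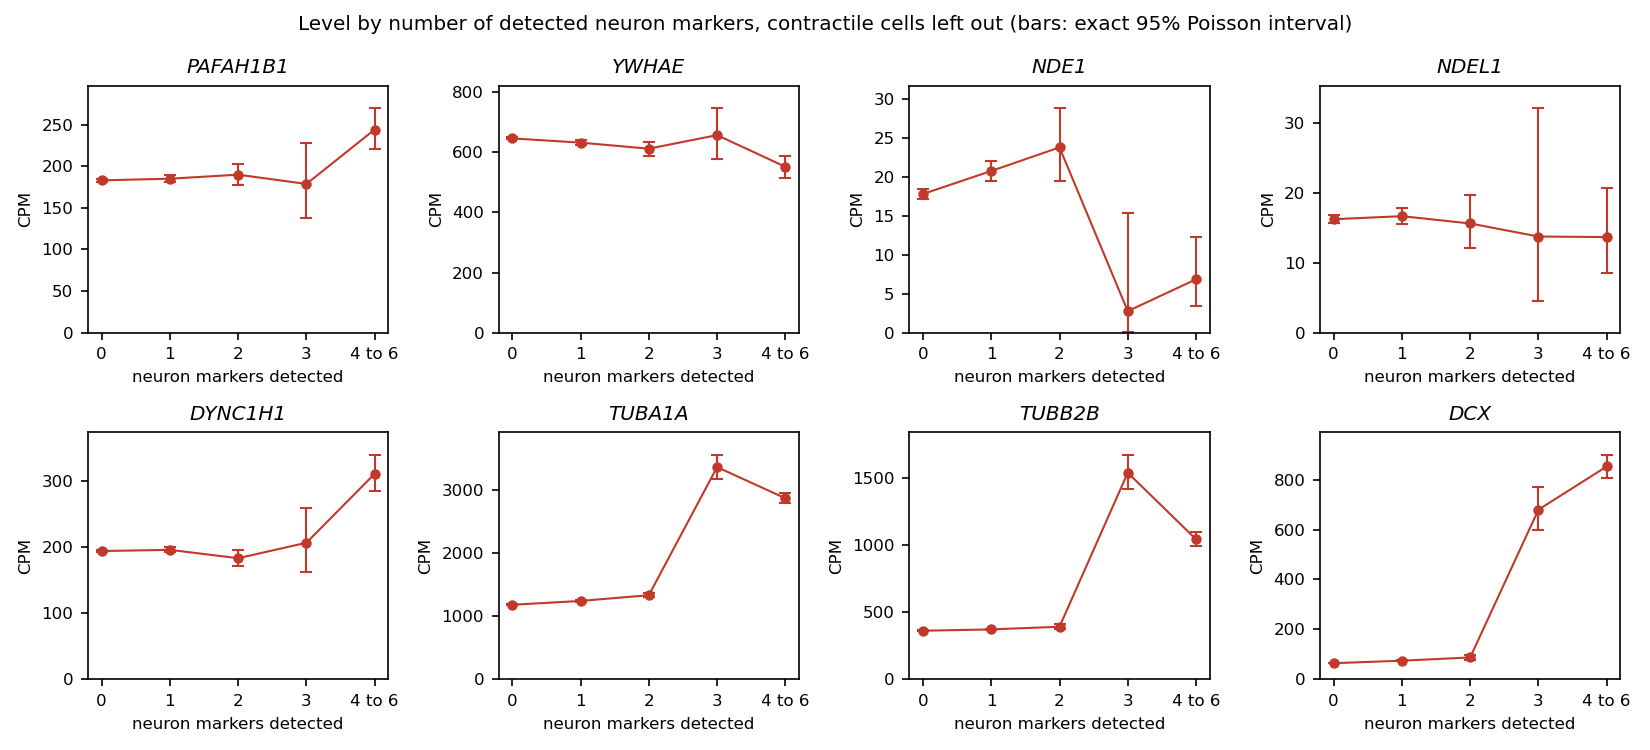
Level of each gene (vertical axis, CPM, from 0) by the number of the 6 neuron markers detected in a cell without thinning (horizontal axis), contractile cells left out, with exact 95% Poisson intervals as bars. DCX, TUBA1A and TUBB2B stand far lower at 0 to 2 markers, where DCX goes from 63.7 to 86.7 CPM, than from 3 on, whereas YWHAE stays between 552 and 658 CPM.

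Single cells of the newborn neuron-like group varied widely. After thinning to 5000 UMIs, 120 of its cells remained, and DCX had a median of 4 UMIs and at most 18, with 10% of cells at 0. TUBA1A had a median of 12 UMIs, with 10% of cells at 4 or fewer and 10% at 36.1 or more. Its variance was 11.2 times its mean, against 1.90 times in other cells, where sampling alone gives 1. The same figure was 7.03 for TUBB2B, 2.98 for DCX and 1.6 for DYNC1H1, and between 0.95 and 1.20 for the other four. At equal relative spread it grows with the mean, so it does not rank genes or groups of unlike level. The means were 16.7 UMIs for TUBA1A, 0.0667 for NDE1 and 0.0583 for NDEL1, and the last 2 are too low to show a spread. Across these 120 cells of 1 library, TUBA1A and TUBB2B had a Pearson r of 0.718, and DCX had 0.387 with TUBA1A and 0.389 with TUBB2B. In other cells the highest r of any pair was 0.162, again TUBA1A with TUBB2B. Counts were lower there, with means of 6.17 and 1.87 UMIs against 16.7 and 6.53, so these values of r are not at equal counts.

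DCX UMIs were not limited to newborn neuron-like cells. At equal depth, after thinning, a DCX UMI was found in 90% of newborn neuron-like, 27.5% of other and 14.1% of contractile cells, and without thinning in 98.3%, 59.5% and 48.5%. Without thinning, EOMES had a UMI in 0.0736% of other and 0.126% of contractile cells, and STMN2 in 11.9% and 16.4%. The part of free RNA in the shares of DCX was not tested. Other cells with 0, 1 and 2 or more thinned DCX UMIs (8840, 2541 and 815 cells) had MKI67, a proliferation marker, at 188, 146 and 102 CPM. STMN2 was 11.9, 14.8 and 26.3 CPM in the same steps, and INSM1 was 0.339, 0.472 and 3.93 CPM. The other neuron markers of the rule (ELAVL3, ELAVL4, NHLH1 and NEUROD1) and TUBB3 had overlapping intervals, ELAVL3 at 4.80, 4.80 and 6.87 CPM. TUBA1A did not go up with DCX among these other cells, at 1241, 1223 and 1198 CPM, and TUBB2B was 371, 378 and 387 CPM with overlapping intervals.

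The rest of the machinery was followed in listed genes, which were chosen by function. For these genes, newborn neuron-like cells were compared with other cells of all cycle states. In G1 were 105 of the 121 newborn neuron-like cells and 2949 of the 12220 other cells. The part of the cell cycle in the ratios of the listed genes was not tested. Of the other dynein subunits, 2 of 9 tested genes were past the fold upward in newborn neuron-like cells and 0 downward, where all tested genes had 10.6% and 22.3%. These were the intermediate chains, DYNC1I1 at 5.23-fold (62.4 against 11.9 CPM) and DYNC1I2 at 1.88-fold. Dynactin, the complex that makes dynein processive, had 3 of 12 subunits upward (ACTR10 at 1.83, DCTN3 at 1.66 and DCTN2 at 1.54) and 1 downward (CAPZB at 0.650), with a median ratio of 1.31. Among adaptors, which link the motor to cargo, 5 of 12 were upward, led by TRAK2 at 2.08 and NIN at 1.72, and 2 downward, HOOK1 at 0.518 and SPDL1 at 0.556. SPDL1 recruits dynein to kinetochores.

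Of the partners of NDE1, NDEL1 and LIS1, 0 of 14 tested genes were past the fold upward in newborn neuron-like cells and 5 downward, beside 10.6% and 22.3% of all tested genes. All 5 were past the fold upward in G2/M against G1 among other cells. The lowest were AURKA at 0.272 and CENPF at 0.301, a mitotic kinase and a kinetochore protein, both of which are also in the list that sets the G2/M score. CDK5R1, the neuronal activator of the kinase CDK5 that phosphorylates NDEL1, lay below the level limit and was named after its values were seen. It stood at 29.4 against 5.70 CPM. Of the other genes of lissencephaly and tubulinopathy, 3 of 11 were upward, led by KIF5C at 4.6, a neuronal kinesin, and MAST1 at 3.12, and 1 downward, TUBG1 at 0.608, the gamma tubulin of centrosomes. RELN, which encodes the secreted guide of migrating neurons reelin, lay below the level limit and was likewise named after its values were seen, at 107 against 1.07 CPM. The other alpha and beta tubulins split, with TUBB2A upward at 3.47 and 4 of 5 downward, TUBB6 at 0.191 and TUBA1C at 0.328 the lowest. These 4 and TUBG1 were past the fold upward in G2/M against G1 among other cells. YWHAZ was the 1 of 5 other 14-3-3 genes past the fold, at 1.74, and DCLK1, a kinase with doublecortin domains, stood at 2.84.

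The cell cycle was examined in other cells, where its 3 states held enough cells to compare. NDE1 varied most. It was 9.14 CPM (8.26 to 10.1) in G1, 10.7 CPM (10.0 to 11.3) in S and 32.2 CPM (31.0 to 33.4) in G2/M. The level intervals of G1 and S overlapped. The ratio of S to G1 was 1.17 (1.04 to 1.31), or 1.08 (0.880 to 1.32) in thinned cells. G2/M stood clear of both, with a ratio to G1 of 3.52 (3.17 to 3.92) and of 3.25 in thinned cells. NDEL1, its paralog, was 15.6, 16.1 and 16.9 CPM, with overlapping intervals and a ratio of G2/M to G1 of 1.09 (0.991 to 1.19), or 1.30 (1.09 to 1.56) in thinned cells. DCX ran opposite to NDE1, with 112 CPM (109 to 115) in G1, 64.1 CPM (62.5 to 65.6) in S and 46.3 CPM (44.9 to 47.7) in G2/M. Its ratios to G1 were 0.572 (0.551 to 0.593) in S and 0.413 (0.396 to 0.431) in G2/M, and both stayed below 1 as UMIs per cell, at 0.732 and 0.671.

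The remaining genes differed by less than the fold between states. TUBA1A was 1354 CPM in G1, 1091 in S and 1244 in G2/M, lowest in S with a ratio of 0.806 (0.798 to 0.814). DYNC1H1 (0.852), TUBB2B (0.896) and PAFAH1B1 (0.931) were also lowest in S. YWHAE lay between 638 and 646 CPM in the 3 states, with overlapping intervals. In S against G1, 0 of the 8 genes were past the fold upward (background 9.67%) and 1, DCX, downward (3.17%). In G2/M against G1, 1 was upward, NDE1 (background 9.07%), and 1 downward, DCX (4.27%). The median ratios were 0.914 for S and 0.988 for G2/M over the 8 genes, and 0.992 and 1.04 over all tested genes.

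A finer view divided the angle of the S and G2/M scores into 8 sectors of 45 degrees, in which sector 3 has the highest G2/M scores and sector 5 has low values of both. Among other cells, NDE1 was highest in sector 3 (39.8 CPM) and lowest in sector 5 (9.0 CPM), a ratio of 4.42. In the next sector, 4, it was 17.2 CPM. DCX was highest in sector 5 (109 CPM) and lowest in sector 2 (39.7 CPM), a ratio of 2.76. TUBA1A spanned 986 CPM in sector 1 to 1423 in sector 4, a ratio of 1.44, and the other five spanned ratios from 1.08 (YWHAE) to 1.25 (DYNC1H1). The highest and lowest sectors were picked from the values themselves, so their ratios are descriptions.

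**Figure D3:**
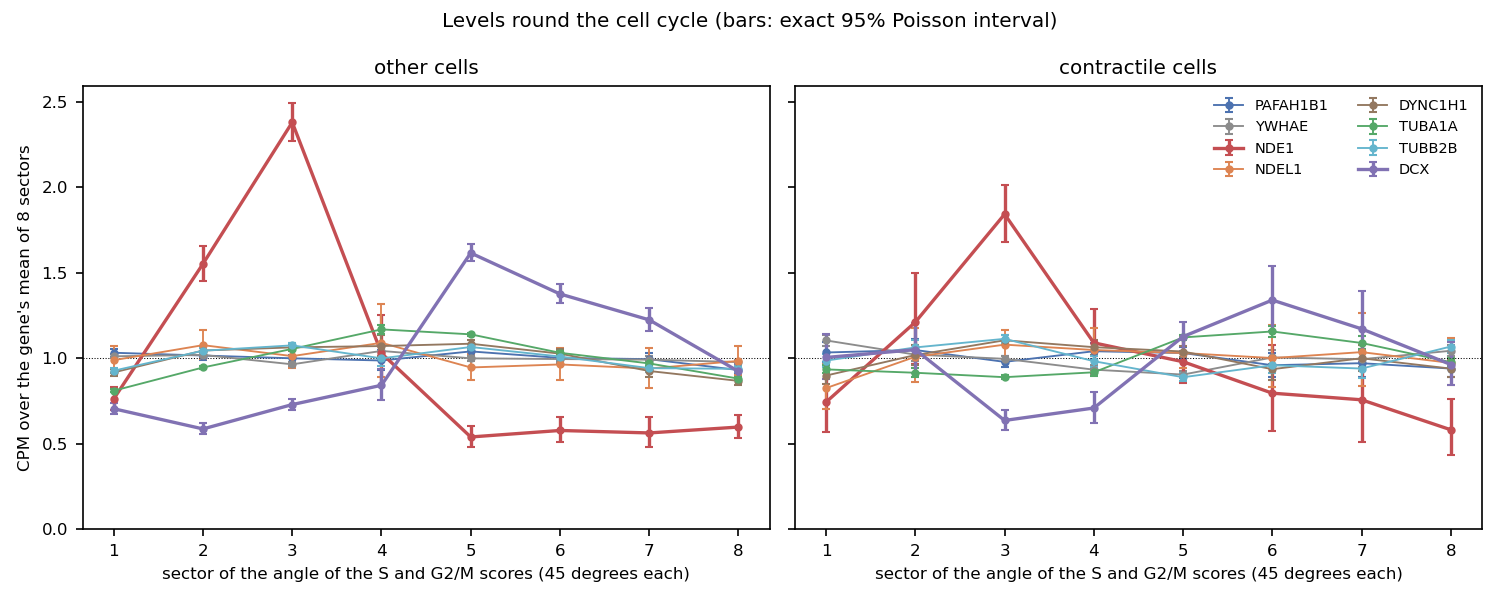
Level of each gene divided by its own mean over 8 cell cycle sectors (vertical axis, no unit, from 0) against the sector (horizontal axis), in other cells (left) and contractile cells (right), with exact 95% Poisson intervals as bars. In both panels NDE1 peaks at sector 3, and DCX is highest at sector 5 in other cells and sector 6 in contractile cells.

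Among the listed genes, several of the pooled partners of NDE1, NDEL1 and LIS1 were higher in G2/M, as NDE1 was. In G2/M against G1, 7 of 14 partners were past the fold upward (background 9.07%) and 0 downward, led by AURKA at 28.0 and CENPF at 8.91, which are in the G2/M list and so had to be high. The other five were KNTC1 (3.08) and ZW10 (1.59), which hold dynein at kinetochores, NUDCD2 (1.73), NUDC (1.53) and KATNA1 (1.51). In S against G1 the count was 4 upward (background 9.67%) and 0 downward (3.17%), with KNTC1 at 4.28 and AURKA at 4.12, and AURKA and CENPF (2.48) of the G2/M list are among the 4. Of the dynein subunits 1 of 9 was past the fold in G2/M, DYNLL1 at 1.66, of the adaptors 1 of 12, SPDL1 at 4.25, and of the dynactin subunits 0 of 12. Of the other tubulins 4 of 5 were upward, led by TUBB4B at 6.11, which is in the G2/M list, and TUBA1C at 4.77. Neither DCLK1 (1.1) nor DCLK2 (0.814) was past the fold where DCX was lower.

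**Figure D4:**
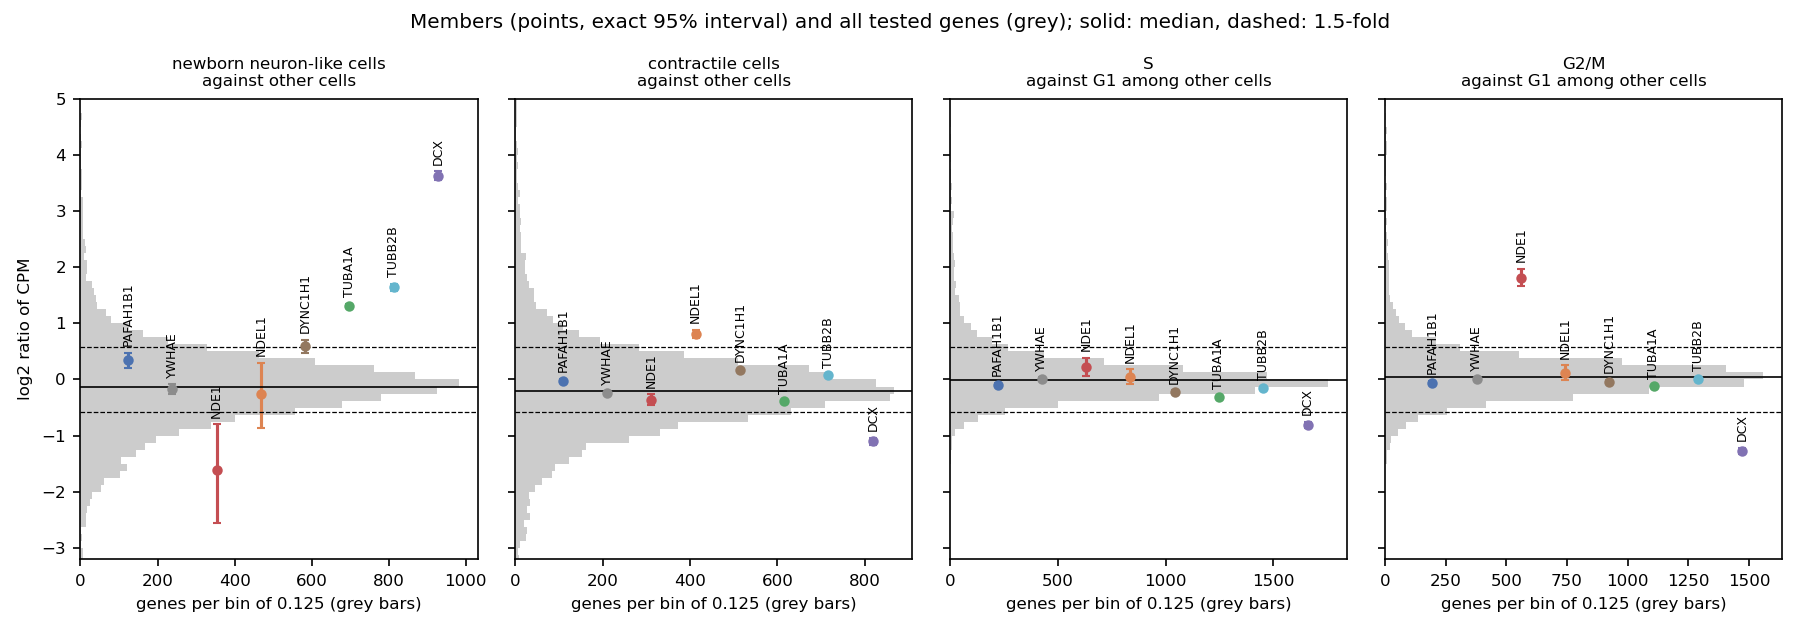
Log2 ratio of CPM (vertical axis) of the 8 genes (points, with exact 95% intervals) in the 4 comparisons, over the distribution of the 10000 tested genes (grey bars, number of genes per bin on the horizontal axis, values outside the axis not drawn; the points are spread along it for legibility only). The solid line is the median of all tested genes and the dashed lines are the 1.5-fold limits; DCX stands above them in newborn neuron-like cells and below them in the other 3 panels.

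Contractile cells were set against other cells to ask how these genes stand outside the neural cells. NDEL1 was the 1 gene past the fold upward (background 11.3%), at 28.6 CPM (27.4 to 29.9) against 16.3 CPM, a ratio of 1.75 (1.66 to 1.85). It was above other cells in each state of the cycle, with 28.8, 25.9 and 30.3 CPM in G1, S and G2/M. NDEL1 overlaps MYH10, a non-muscle myosin gene on the opposite strand, over 16205 bases, and MYH10 stood at 469.8 CPM in contractile, 301 in other and 258 in newborn neuron-like cells. Counting used default parameters, per the study's methods, which for a 3′ kit take reads on the sense strand of a gene, and the part of MYH10 reads in the level of NDEL1 was not tested.

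DCX was the 1 gene past the fold downward (background 26.7%), at 31.0 CPM (29.7 to 32.2) against 66.2 CPM, a ratio of 0.468 (0.448 to 0.489). Per cell, contractile cells held 1.5 DCX UMIs and other cells 1.28, a ratio of 1.17, on a scale where the median ratio of all tested genes was 2.18. Relative to the median, DCX was 0.539. This value is the same on both scales by construction, since they differ by a factor common to all genes. On the CPM scale TUBA1A with a ratio of 0.763 (0.757 to 0.769), NDE1 with 0.778 (0.728 to 0.831) and YWHAE with 0.851 (0.842 to 0.860) were lower in contractile cells without passing the fold. DYNC1H1 was 1.13 (1.11 to 1.15) and TUBB2B 1.05 (1.04 to 1.07), and the interval of PAFAH1B1, 0.987 (0.968 to 1.01), included 1. The median was 0.919 over the 8 genes and 0.868 over all tested genes, which is -0.20 on the log2 scale. Relative to that median, NDEL1 was 2.02, TUBA1A 0.879, NDE1 0.897, YWHAE 0.981, PAFAH1B1 1.14, TUBB2B 1.21 and DYNC1H1 1.30.

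Among the listed genes, both doublecortin-like kinases tested were past the fold downward with DCX in contractile cells, DCLK1 at 0.299 and DCLK2 at 0.346. The share over all tested genes was 11.3% upward and 26.7% downward. Dynactin subunits had 0 of 12 past the fold in either direction. Of the dynein subunits 0 of 9 were upward and 2 downward (DYNLL2 at 0.558 and DYNC1I1 at 0.647), and of the adaptors 2 were upward (BICD2 at 1.70 and TRAK2 at 1.53) and 6 of 12 downward, HOOK1 at 0.205 and HOOK2 at 0.584 the lowest of those tested. The tubulins TUBB6 (4.55), TUBB2A (3.93) and TUBA1C (3.03) were upward, 3 of 5, whereas TUBA1A was lower. Of the other genes of lissencephaly 4 of 11 were upward, led by the laminin chain LAMB1 at 6.94 and the cytoplasmic actin ACTG1 at 2.29, and 2 downward, MAST1 at 0.492 and CRADD at 0.644. Partners of NDE1, NDEL1 and LIS1 had 0 of 14 upward and 2 downward (KNTC1 at 0.599 and PAFAH1B3 at 0.650). Of the other 14-3-3 genes YWHAZ was upward at 1.81.

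Within contractile cells, too, NDE1 was highest and DCX lowest in G2/M. NDE1 was 10.8 CPM (9.21 to 12.6) in G1, 9.16 CPM (8.0 to 10.4) in S and 19.2 CPM (17.8 to 20.7) in G2/M, a ratio of G2/M to G1 of 1.77 (1.49 to 2.12), and its thinned ratio was 1.53 with an interval that included 1. DCX was 44.9, 33.5 and 23.8 CPM, a ratio of 0.531 (0.479 to 0.588). TUBB2B was lowest in G1 in contractile cells, with 329, 382 and 404 CPM, whereas in other cells it was lowest in S. YWHAE was likewise lowest in G1, at 497 CPM, against 579 in S and 546 in G2/M. These differences between the 2 kinds of cell were not tested.

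Shares within a gene family need no scaling by depth. NDE1 made up 37.0% (34.1 to 40.0) of the UMIs of NDE1 and NDEL1 in G1, 39.9% (38.0 to 41.7) in S and 65.6% (64.1 to 67.0) in G2/M among other cells, so that it outnumbered NDEL1 in G2/M and not in G1 or S. In contractile cells the share was 33.5% (31.8 to 35.1), and in newborn neuron-like cells 30.8% (17 to 47.6) of 39 UMIs, which overlaps G1, S and contractile cells. In thinned newborn neuron-like cells it was 53.3%, from 8 UMIs of NDE1 and 7 of NDEL1 in 1 draw, so the share there is poorly fixed. NDE1 shares bases with MYH11 on the opposite strand and with 2 genes on its own strand, AC026401.3 and AF001548.2, which gave 1.75, 4.52 and 0.461 CPM over all kept cells.

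TUBA1A made up 82.3% (81.4 to 83.2) of the UMIs of TUBA1A, TUBA1B and TUBA1C in newborn neuron-like cells, against 56.8% in G1, 41.4% in S, 35.2% in G2/M and 35.0% in contractile cells. TUBB2B made up 45.9% (44.5 to 47.3) of 7 beta tubulin genes, against 30.3%, 21.3% and 16.8% in the 3 states and 17.4% in contractile cells. Both shares were lowest in cells in G2/M or contractile cells. The level of TUBB2B itself was 381 CPM in G1 and 382 in G2/M, so its share differed there through the other beta tubulins, among them TUBB4B, which is in the list that sets the G2/M score. Tubulin paralogs are near-identical in their coding parts, and reads that match several genes are left out by the counting software, so part of their molecules may be uncounted. DCX made up 69.1% (67.2 to 71.0) of the UMIs of DCX, DCLK1 and DCLK2 in newborn neuron-like cells, 44.8% in G1, 26.0% in S, 25.1% in G2/M and 38.4% in contractile cells. YWHAE made up 25.8% (24.5 to 27.1) of 7 14-3-3 genes in newborn neuron-like and 22.0% in contractile cells, both below the 30.9% to 33.2% of other cells.

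**Figure D5:**
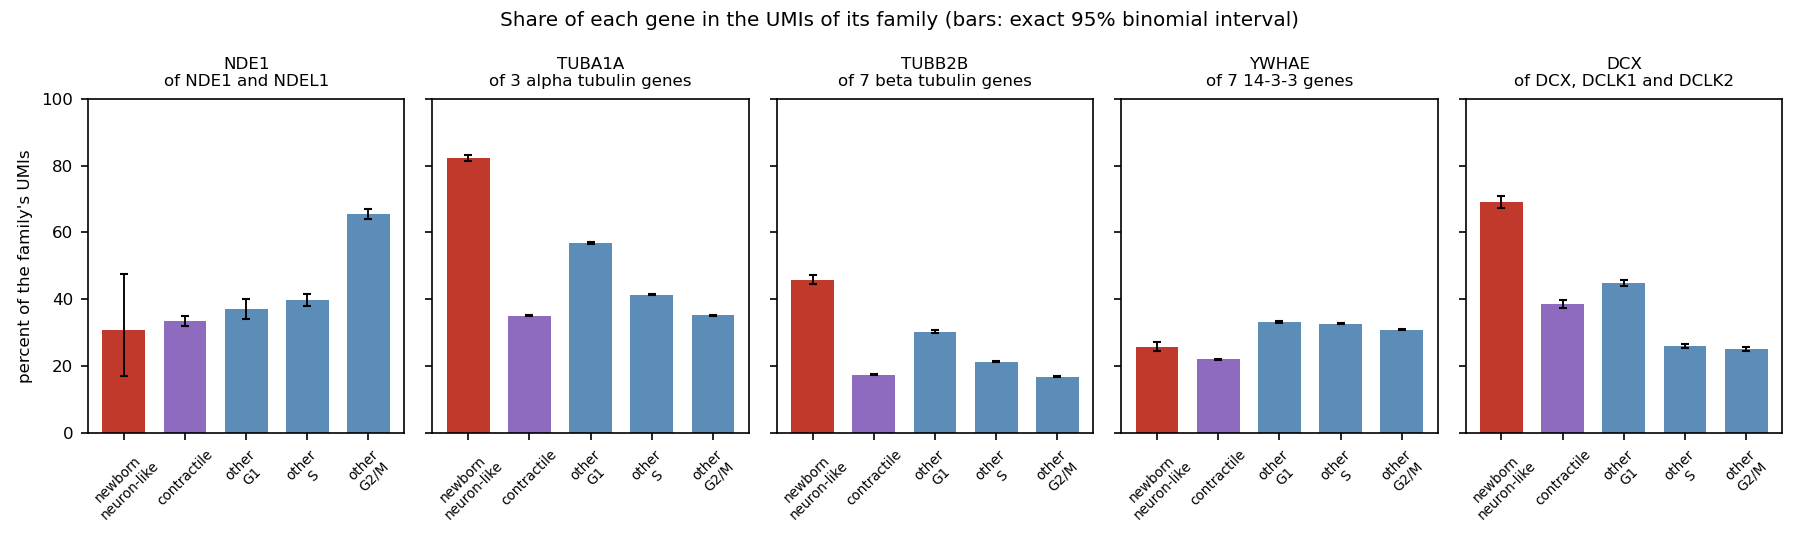
Share of NDE1, TUBA1A, TUBB2B, YWHAE and DCX in the UMIs of their gene families (vertical axis, percent) in 5 cell groups (bars), with exact 95% binomial intervals. TUBA1A reaches 82.3% in newborn neuron-like cells, and NDE1 passes 50% of its pair in G2/M alone (65.6%).

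By the GENCODE 44 annotation of GRCh38, 3 of the genes lie on the short arm of chromosome 17 with SMG6, the gene that holds HAR123 in an intron. PAFAH1B1 (chromosome 17, 2593210 to 2685615) is 289425 bases from SMG6 with 7 listed genes between them. YWHAE (1344275 to 1400222) is 659617 bases away on its other side with 26 between, and NDEL1 (8413131 to 8490411) 6109346 bases away with 241 between. PAFAH1B1 and YWHAE lie in 17p13.3, whose deletion that takes in both causes Miller-Dieker lissencephaly. The others are elsewhere, NDE1 on chromosome 16 (15643267 to 15734691), DYNC1H1 on 14 (101964573 to 102056443), TUBA1A on 12 (49184686 to 49189080), TUBB2B on 6 (3223324 to 3231730) and DCX on X (111293779 to 111412429). In newborn neuron-like against other cells SMG6 stood at 0.746, PAFAH1B1 at 1.26 and YWHAE at 0.889. Of the genes of that interval beside PAFAH1B1 and YWHAE, SMG6 included, 0 of 13 tested were past the fold upward and 4 downward, TSR1 at 0.553 and SMYD4 at 0.608 the lowest, beside 22.3% of all tested genes downward. In contractile cells SMG6 was 0.768, and 1 of the same 13 genes was upward, MYO1C at 2.36, and 4 downward, SLC43A2 at 0.276 and SERPINF1 at 0.293 the lowest, beside 26.7% downward. Both counts are near the share over all genes. The libraries in which HAR123 was deleted or replaced were not analysed here.

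Likeness of pattern was measured by Pearson r of log2(CPM + 1) over 17 groups of cells, the 8 sectors of other cells, the 8 of contractile cells and the newborn neuron-like cells. The groups come from 1 library, and the measure ran over 7582 genes of at least 20 CPM outside the lists that set the groups. The genes most like DCX were KALRN (r = 0.972), RND2 (0.964) and NCOA1 (0.960), KALRN and RND2 being regulators of small GTPase signalling. TUBA1A was most like NCOA1 (r = 0.972), GFOD2 (0.965) and KALRN (0.963), so that 2 of its 3 were shared with DCX. TUBB2B was most like CFAP298 (r = 0.980), KIF5C (0.960) and DBN1 (0.959), and KIF5C and DBN1 encode a neuronal kinesin and the actin-binding drebrin. In the sectors TUBB2B lay between 334 and 422 CPM, against 1135 in newborn neuron-like cells, so its r rests largely on that 1 group. DCX and TUBA1A also stood highest in that group, at 821 and 2967 CPM against at most 109 and 1423 in any sector. NDE1 was most like PPP1R35 (r = 0.889), ARL6IP1 (0.888) and DDX10 (0.883). NDEL1, whose pattern divides contractile from other cells, was most like NARS (r = 0.989), ARPC2 (0.988) and ME1 (0.988). DYNC1H1 was most like CSNK1G3 (r = 0.933), SPAG9 (0.928) and CPEB4 (0.926) and YWHAE like SUMO2 (r = 0.958), TMSB15A (0.953) and HNRNPC (0.95).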

How the data were processed

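The authors deposited raw counts, the number of UMIs per gene and barcode, of 1 library (10x Genomics 3′ HT v3.1), made with Cell Ranger 7.0.1 on GRCh38 and analysed with Seurat 4.4.0, per the labels. Counting used default parameters, per the methods, and the annotation version is not given in the sources used here. The 2 loading wells share 1 barcode suffix and, like the clones, could not be separated. UMIs were summed over the cells of a group and divided by its total (CPM), with exact intervals (Poisson, conditional binomial for ratios, Clopper-Pearson for shares) from scipy 1.17.1. Cell cycle states were scored with scanpy 1.11.5 and the 43 S and 54 G2/M genes of the Seurat 5.3.0 lists, and 89.5% of cells kept their state after thinning. Thinning drew 5000 UMIs per cell and left out 28 shallower cells. Scrublet marked 1 of 14726 barcodes and so did not work. No doublet was removed, and an alternative left out the 1178 highest scores. Near the limits, 228 cells had exactly 2 and 24 exactly 3 neuron markers, and 89 and 72 cells lay within 1 UMI per 10000 below and above the contractile limit. Ratios and intervals were tested on simulated counts drawn without variation between cells, so that test covers counting error only. Named are the 8 genes in each group, the genes past the fold at the ends of each list, and the 3 genes of most similar pattern, which are not reported here for PAFAH1B1. The genes, lists and groups were chosen with earlier results of these data known. Positions are from GENCODE 44 (matched for 98.7% of gene identifiers).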

Additional observations from a re-analysis of the deposited data

Results flagged for a closer look

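For 2 genes the direction of a cell cycle difference was opposite in contractile and in other cells, with both intervals of pooled CPM clear of 1. TUBB2B in S relative to G1 was 1.16 (1.12 to 1.20) in contractile cells and 0.896 (0.879 to 0.913) in other cells, and 1.11 and 0.902 in thinned cells. DYNC1H1 in G2/M relative to G1 was 1.08 (1.03 to 1.12) in contractile cells and 0.974 (0.949 to 0.999) in other cells, and 1.01 (0.885 to 1.14, which includes 1) and 0.949 in thinned cells. Neither difference between the kinds of cell was tested, since they share 1 library.

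The 801 barcodes removed by the quality filter, which entered only the alternative with all barcodes, also held UMIs of all 8 genes. Their levels were 198 CPM for PAFAH1B1, 483 for YWHAE, 21.6 for NDE1, 27.0 for NDEL1, 224 for DYNC1H1, 925 for TUBA1A, 366 for TUBB2B and 31.0 for DCX. DCX was thus lower there than over the kept cells (62.3 CPM), and NDEL1 higher (19.3 CPM in kept cells).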

How the results depend on the processing

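The scale, the level limit and the marker rule each moved the calls. Taken as UMIs per cell, DCX in contractile against other cells turned from 0.468 to 1.17, the only ratio past the fold whose direction turned under any alternative. That scale moves all genes by the same factor of depth, which takes the median ratio from 0.868 to 2.18. Relative to the median DCX was therefore 0.539 on both scales by construction, which is no separate check. On that scale 7 of the 8 genes were past the fold in contractile cells, 0 in S and 6 in G2/M, and the genes past it, upward and downward, numbered 630 and 3502 for newborn neuron-like cells, 8022 and 298 for contractile cells, 2462 and 37 for S and 6979 and 17 for G2/M. With CPM they numbered 1062 and 2231 for newborn neuron-like cells, 1131 and 2669 for contractile cells, 967 and 317 for S and 907 and 427 for G2/M. The median-of-ratios factors gave 1702 upward in contractile cells. At a 2-fold limit 1 of the 8 genes was past it in contractile cells and 0 in S, and all genes numbered 453 and 1081 for newborn neuron-like cells, 601 and 1247 for contractile cells, 472 and 29 for S and 427 and 74 for G2/M. Lowering the level limit to 1 CPM gave 2500 and 3926 for newborn neuron-like cells, 1846 and 5603 for contractile cells, 1626 and 1091 for S and 1400 and 1478 for G2/M, and no level limit gave 5271 and 13755 for newborn neuron-like cells, 4522 and 13348 for contractile cells, 3178 and 5370 for S and 2727 and 6310 for G2/M. With at least 2 neuron markers, 3 of the 8 genes were past the fold, with 313 and 150 of all genes, and DCX stood at 4.77 and NDE1 stood at 0.996. In thinned cells the share of NDE1 was 42.7% in G1 and 53.3% in newborn neuron-like cells. Of 344 alternative ratios of the 8 genes, 20 crossed 1, of which 12 by UMIs per cell. Limiting newborn neuron-like and other cells to G1, chosen after seeing the data, gave 8.69 for DCX and 4 of the 8 genes past the fold, 3 upward and 1 downward, beside 1065 and 2280 of 10000 genes, with DYNC1H1 short of it at 1.47. The causes were not tested. The 1 library, its 121 newborn neuron-like cells and 12 NDE1 UMIs in them limit what can be compared.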
